A study of Mus musculus with 12 samples.

Results

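The wild-type time comparison covers 6 of the 12 libraries of a mouse RNA sequencing series: 3 from wild-type (WT) tibialis anterior labelled ZT22 and 3 labelled ZT10. They were chosen by genotype and time label alone. The tibialis anterior is a fast limb muscle at the front of the lower leg. ZT is zeitgeber time, in hours after lights on, so that a nocturnal animal is near the end of its rest phase at ZT10 and near the end of its active phase at ZT22. The other 6 libraries, 3 at each time, carry the genotype label KO, in which Rev-erb genes were knocked out in skeletal muscle alone. They give a second view of the time difference. They also enter the WT test, through the filter on low values and the spread of each gene, which was estimated over all 12 libraries.

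The sample titles give ZT10 and ZT22, whereas the series' design text names 0 and 12 h; the groups follow the titles, so which libraries belong together is known and the hour of each group is not. Total RNA was taken from frozen whole muscle. Strain, age, sex, feeding, lighting and the driver of the knockout could not be taken from the labels. Nothing in the labels says that the 3 libraries of a group came from separate animals, so the p-values measure the spread between these libraries, which may be technical.

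The circadian clock of a cell is a transcription loop. BMAL1 (Arntl) pairs with CLOCK or NPAS2 to activate genes through E-box sites, among them the period and cryptochrome genes, whose proteins then block that activation. The REV-ERB receptors (Nr1d1, Nr1d2) repress and the ROR receptors activate Arntl through a shared element, and the factors DBP, TEF and HLF carry the rhythm to further genes through D-box sites. In muscle, clock time is layered on feeding, activity and glucocorticoid rhythms, which set the balance between glucose and fat as fuel.

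The summed FPKM (fragments per transcript length and library size) was 501839 to 545094 in the ZT10 and 461576 to 470954 in the ZT22 libraries. The 10 most abundant genes held 28.9 to 30.7% of that sum at ZT10 and 24.1 to 26.8% at ZT22, without overlap. Depth in reads is unknown. The 9 fast fibre marker genes summed to 78702 to 85961 FPKM at ZT10 and 67149 to 74012 at ZT22, against 62.3 to 95.7 FPKM over both times for the 8 slow fibre markers.

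Between ZT10 and ZT22, 2404 of 9953 tested genes differed in WT muscle (24.2%), of which 1830 were higher at ZT22 (18.4%) and 574 lower (5.77%). The test was limma on log2(FPKM + 1), at a Benjamini-Hochberg adjusted p under 0.05, and log2 differences below are ZT22 minus ZT10 on that scale with their standard error (SE), from 3 libraries per time. Most differences were small: a 2-fold rise or more was called for 87 genes (0.874%) and a 2-fold fall or more for 39 (0.392%). The 3 libraries of one time lay wholly above those of the other for 4338 genes (43.6%), of which 3009 were higher at ZT22 (30.2%) and 1329 lower (13.4%). Leaving out WT ZT22 replicate 2 lowered the count of called genes to 1290, leaving out WT ZT10 replicate 1 to 1406 and leaving out WT ZT22 replicate 1 to 1477. Leaving out KO ZT10 replicate 3 raised the count to 2929, and the 6 WT libraries alone gave 2457.

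The excess of higher over lower genes moved with the scaling of the libraries. Median-of-ratios factors were 0.939 to 1.01 for the ZT10 and 1.02 to 1.14 for the ZT22 libraries, and dividing by them shifted the median difference of all tested genes by -0.13, from 0.09 to -0.04. The calls then came to 1048 higher (10.5%) and 1378 lower (13.8%). All 574 lower genes kept their call under this scaling, as did 1048 of the 1830 higher genes.

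Long transcripts were higher at ZT22. Genes with a length were split by it into 10 bins of equal size. In the shortest bin, with a median transcript of 641 bases, the median log2 difference was 0.00, and 11% of genes were higher and 12.8% lower. In the longest bin, with a median of 6081 bases, the median was 0.30, and 42.4% were higher and 1.82% lower. The median transcript length was 3045 bases among genes called higher and 1316 among those called lower. With the trend against length removed from each library, 983 genes were higher (9.93%) and 990 lower (10%) of 9901 with a length. Of the 1830 higher genes 974 kept their call, as did 566 of the 574 lower. Subtracting the trend also took out each library's overall level, so these counts are not an effect of length alone. The median difference was then -0.01. The part of RNA quality or library preparation in this trend was not tested.

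**Figure D1:**
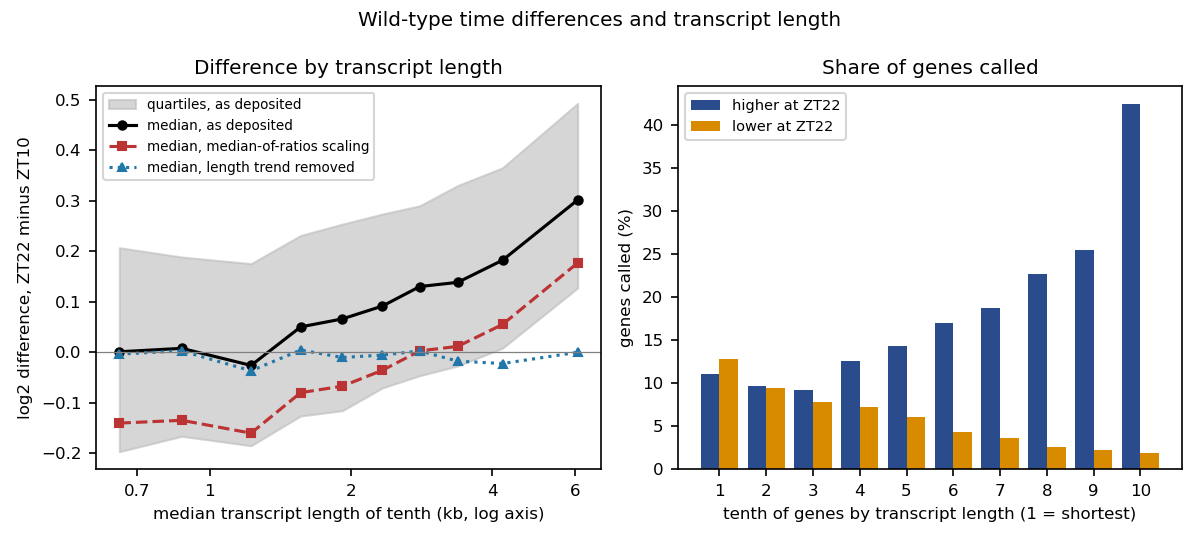
Left, the median log2 difference (ZT22 minus ZT10) of genes in 10 bins by transcript length, against the median length in kb on a log axis, with the quartiles as a grey band; right, the percentage of each bin called higher or lower. As deposited, the medians climb from 0.00 to 0.30, scaling lowers the whole line, and removing the length trend flattens it.

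Because of these shifts, each call was repeated in 21 other settings, which include both corrections and the loss of each of the 12 libraries in turn. The call and its direction held in all of them for 635 higher (6.38%) and 243 lower genes (2.44%). Genes described below as having risen or fallen are among these unless a setting that ended the call is named.

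Arntl and Clock, the activating pair of the clock, rose at ZT22. Of 5 tested members of the activator list, 4 were higher (80%, beside 18.4% of all genes) and 0 lower (beside 5.77%). Of these calls 3 and 0 held, and the median log2 difference was 0.66. Arntl (ENSMUSG00000055116.8, chr7:113207465-113314126, plus strand, GRCm38) was 3.63, 4.09 and 3.32 FPKM at ZT10 and 17.6, 19.2 and 15.3 FPKM at ZT22. The groups were far apart, and Arntl had the smallest p of all genes, rising by 1.97 ± 0.11 (adjusted p = 2.48e-06). Its partner Clock was 2.75, 3.75 and 3.9 FPKM at ZT10 and 8.26, 8.01 and 7.37 FPKM at ZT22. It rose by 1.00 ± 0.13 (adjusted p = 4.21e-04). Npas2, the alternative partner, was 0.08, 0.08 and 0.12 FPKM at ZT10 and 0.81, 0.84 and 0.56 FPKM at ZT22. All WT libraries were below 1 FPKM, so that Npas2 passed the filter on low values only through the libraries labelled KO, and its difference of 0.66 (adjusted p = 0.00128) rests on very low levels.

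Rora, a ROR receptor gene, was 12.4, 15.5 and 15.5 FPKM at ZT10 and 14.3, 13.9 and 14.4 FPKM at ZT22. Its groups overlapped and it did not pass (difference -0.01, adjusted p = 0.94), but it was called lower with the length trend removed (0.0362). Arntl2 at 0.37 to 1.05 FPKM and Rorb at 0.02 to 0.07 FPKM were too low to be tested.

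Among clock repressors, Per2, Ciart and Nr1d2 fell at ZT22. Of 15 tested members, 4 were lower (3 held) and 3 higher (0 held, and 0 under scaling). These were 26.7% of the list beside 5.77% of all genes, and 20% beside 18.4%. The median was 0.00, beside 0.09 over all genes. Per2, a period gene, was 3.95, 4.35 and 4.44 FPKM at ZT10 and 1.62, 1.88 and 1.42 FPKM at ZT22. It fell by 0.99 ± 0.11 (adjusted p = 1.79e-04). Ciart, which encodes the repressor CHRONO, was 5.82, 5.6 and 3.52 FPKM at ZT10 and 1.25, 1.76 and 0.85 FPKM at ZT22. All ZT22 libraries lay below the lowest ZT10 library, and Ciart fell by 1.38 ± 0.19 (adjusted p = 6.91e-04).

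Per1 was 12.9, 19.1 and 17.1 FPKM at ZT10 and 9.17, 11.3 and 6.52 FPKM at ZT22. Its groups did not overlap, but the difference of -0.81 did not pass (adjusted p = 0.0665); it passed in 8 of the other settings, among them median-of-ratios scaling (0.0317), removal of the length trend (0.0256) and the 6 WT libraries alone (0.0150). Per3 was 4.17, 5.44 and 5.53 FPKM at ZT10 and 5.92, 5.01 and 4.12 FPKM at ZT22. It gave no call, with overlapping groups and a difference of -0.01 ± 0.15. The 3 period genes thus gave 1 call.

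Of the REV-ERB receptors, 1 fell. Nr1d2 (REV-ERBβ) was 37.5, 42.4 and 43.6 FPKM at ZT10 and 29.7, 28.4 and 29.2 FPKM at ZT22. It fell by 0.48 ± 0.077 (adjusted p = 0.00139). Nr1d1 (REV-ERBα) was 37.03, 31.6 and 27.6 FPKM at ZT10 and 52.7, 54 and 37.99 FPKM at ZT22. The ZT22 libraries were all higher, with a difference of 0.57 (adjusted p = 0.0186), which was lost under scaling (0.0697), with the length trend removed (0.0594) and without WT ZT10 replicates 2 or 3 or WT ZT22 replicates 1 or 2, at up to 0.0807.

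No cryptochrome call held in every setting. Cry1 was 6.44, 5.58 and 6.0 FPKM at ZT10 and 8.22, 9.22 and 6.7 FPKM at ZT22, a difference of 0.36 (adjusted p = 0.0354). It was lost under scaling (0.136), in the 6 WT libraries alone (0.0547), and without KO ZT22 replicate 1 or any WT library but ZT22 replicate 3, at up to 0.147. Cry2 was 14.4, 13.1 and 13.8 FPKM at ZT10 and 9.31, 11.3 and 10.7 FPKM at ZT22, a difference of -0.37 (adjusted p = 0.035). It was lost without any one of the 6 WT libraries, at 0.0513 to 0.134. Bhlhe40, Bhlhe41, Nfil3, Csnk1d, Csnk1e and Btrc did not pass, and Fbxl21 was too low to be tested.

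Of 9 tested clock output genes, 1 was higher (11.1%, beside 18.4% of all genes) and 3 lower (33.3%, beside 5.77%), of which 0 and 2 held. The median was -0.24. Dbp, the D-box activator (ENSMUSG00000059824.12, chr7:45705088-45710203, plus strand, GRCm38), was 46.6, 45.01 and 51.9 FPKM at ZT10 and 7.57, 6.72 and 6.62 FPKM at ZT22. The groups were separated widely, and Dbp fell by 2.62 ± 0.17 (adjusted p = 6.45e-06). Tspan4, a tetraspanin gene of the cell membrane, was 8.36, 7.55 and 7.86 FPKM at ZT10 and 3.97, 4.07 and 4.23 FPKM at ZT22. It fell by 0.81 ± 0.080 (adjusted p = 1.09e-04). Usp2, a ubiquitin protease gene, was lower by a log2 difference of -0.52 (adjusted p = 0.0133), which was lost without WT ZT10 replicate 1 (0.0612). Leo1, a subunit gene of the PAF elongation complex, differed by 0.58 (adjusted p = 0.0111), lost without WT ZT22 replicate 2 (0.0503).

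Tef and Hlf, the other D-box factors, were lower on average and did not pass. Tef was 78.1, 90.2 and 90.5 FPKM at ZT10 and 74.97, 74.1 and 69.7 FPKM at ZT22. Its difference of -0.24 (adjusted p = 0.148) passed only with a correction for scaling (0.0165) or length (0.0407), with or without the replicate block. Hlf was 3.53, 3.82 and 4.35 FPKM at ZT10 and 4.03, 2.94 and 2.55 FPKM at ZT22 and did not pass (adjusted p = 0.494). Nampt, the NAD salvage enzyme gene, was 52.8, 52.5 and 51.5 FPKM at ZT10 and 44.9, 46.2 and 47.3 FPKM at ZT22, again without overlap, and passed only with those corrections (difference -0.18, adjusted p = 0.11). Wee1 and Lonrf3 gave no call.

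**Figure D2:**
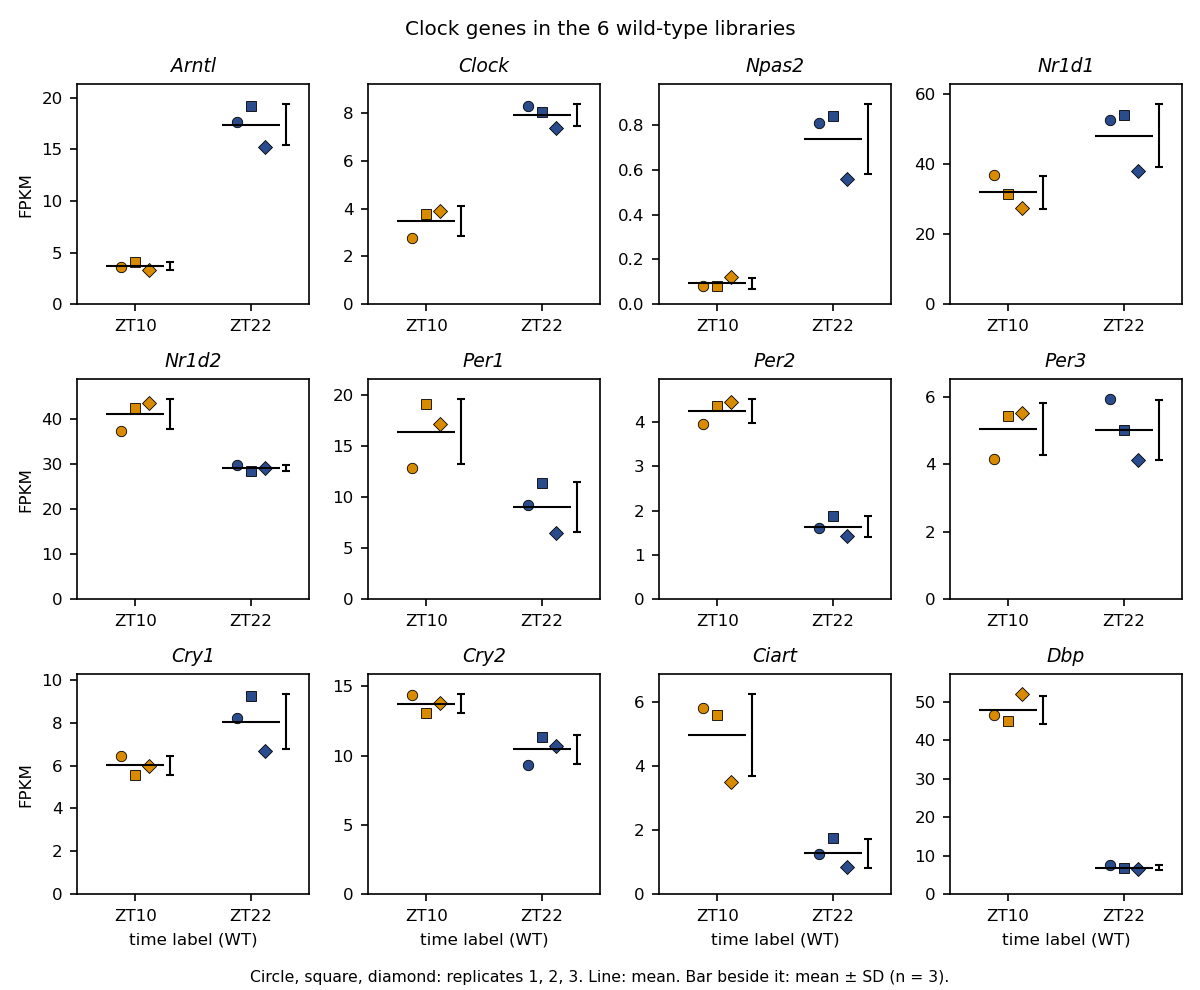
FPKM of 12 clock genes in each WT library at ZT10 (orange) and ZT22 (blue), with the mean as a line and the mean ± SD (n = 3) as a bar; axes start at 0. Arntl and Clock stand higher at ZT22, as does Npas2 at a very low level, Nr1d2, Per2, Ciart and Dbp lower, and Per3 overlaps.

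Promoter stretches are shown for clock repressors because they carry the E-box or D-box letters through which the loop acts. Of the repressors shown, Ciart fell, Per1 and Per3 did not pass, and the higher call of Cry1 did not hold in every setting. The stretches are RefSeq sequences on build GRCm38.p6, read 5′ to 3′ on the gene's strand, with capitals marking the motif. Ciart (chr3:95882247-95882364, minus strand) holds 3 E-boxes, at -116, -58 and -44 from its start site; Per1 (chr11:69098763-69098808, plus strand) holds 1 at -166 and Cry1 (chr10:85185089-85185134, minus strand) 1 at -60. Per3 (chr4:151044796-151044890, minus strand) holds 2 D-boxes, the first at -205.
Ciart: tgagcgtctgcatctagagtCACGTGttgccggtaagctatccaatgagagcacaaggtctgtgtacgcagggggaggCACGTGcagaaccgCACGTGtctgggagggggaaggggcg
Per1: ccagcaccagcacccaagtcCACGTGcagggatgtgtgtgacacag
Cry1: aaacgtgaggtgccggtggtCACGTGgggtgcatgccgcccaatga
Per3: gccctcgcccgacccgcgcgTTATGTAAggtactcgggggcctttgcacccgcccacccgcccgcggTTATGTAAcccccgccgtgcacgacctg
The E-box searched was CACGTG and the D-box TTANGTAA, on both strands, in windows of the 250 bases before each start site. An E-box was in the windows of 6.86% of 27025 genes, and in 10.3% of the tested genes with a window, 9.69% of those higher and 10.5% of those lower at ZT22. A D-box was in 2.44% of genes, and the ROR element, by its usual name RORE, in 0.396%. Of the 11 repressors with a window, 4 held an E-box and 1 a D-box. Per2 had no entry. A match is a description of letters only.

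Several genes of the switch from glucose to fat as fuel fell at ZT22. Pdk4, the kinase that shuts pyruvate dehydrogenase and so spares glucose, was 581, 687 and 589 FPKM at ZT10 and 72.2, 205 and 184 FPKM at ZT22. WT ZT22 replicate 1 was the lowest, the groups lay far apart, and Pdk4 fell by 2.13 ± 0.39 (adjusted p = 0.00276). Ucp3, a mitochondrial carrier gene of muscle that follows fatty acid supply, was 157, 166 and 174 FPKM at ZT10 and 28.4, 49.96 and 53.9 FPKM at ZT22. It fell by 1.94 ± 0.30 (adjusted p = 0.00102). Its relative Ucp2 fell by 0.79 ± 0.18 (adjusted p = 0.00849), and Cpt1a, the liver-type gate of fatty acids into mitochondria, fell by 0.56 ± 0.13 (adjusted p = 0.0101).

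Most members of the wider fat oxidation list were not called. Of 34 tested members, 1 was higher (2.94%, beside 18.4% of all genes) and 4 lower (11.8%, beside 5.77%), of which 0 and 3 held. The median was -0.05, beside 0.09 over all genes. Under median-of-ratios scaling 11 of the 34 were lower, beside 13.8% of all genes, and the median was -0.19, beside -0.04. Angptl4, a secreted lipase inhibitor induced by fatty acids, was 3.98, 5.38 and 7.87 FPKM at ZT10 and 0.59, 2.53 and 0.37 FPKM at ZT22. Its difference of -1.73 (adjusted p = 0.0297) was lost under robust empirical Bayes (0.0645) and without any WT library but ZT22 replicate 2, at up to 0.0958. Of 13 members of the pyruvate and ketone list, 0 were higher and 4 lower (30.8%, beside 5.77% of all genes), of which 0 and 2 held. The median was -0.13, and without WT ZT10 replicate 1 or WT ZT22 replicates 1 or 2 there were 2 lower. Mpc1, a subunit of the mitochondrial pyruvate carrier, fell by 0.51 ± 0.088 (adjusted p = 0.00195).

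G0s2 and Pnpla3, genes of fat storage, rose at ZT22. G0s2, an inhibitor of adipose triglyceride lipase, was 6.67, 7.49 and 10.7 FPKM at ZT10 and 42.6, 111 and 108 FPKM at ZT22. WT ZT22 replicate 1 was well below the other two, yet all 3 were above every ZT10 library, and G0s2 rose by 3.15 ± 0.52 (adjusted p = 0.00155). Pnpla3, a lipid droplet protein gene induced by feeding, was 0.52, 0.86 and 1.24 FPKM at ZT10 and 5.52, 6.13 and 3.5 FPKM at ZT22. It rose by 1.68 ± 0.22 (adjusted p = 4.42e-04). Scd1, the fatty acid desaturase, was 7.3, 4.94 and 8.45 FPKM at ZT10 and 17.2, 37.6 and 15.6 FPKM at ZT22. WT ZT22 replicate 2 was the highest, and the difference of 1.55 (adjusted p = 0.0118) was lost without it (0.0528).

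Of 28 tested sterol and fatty acid synthesis genes, 6 were higher (21.4%, beside 18.4% of all genes) and 2 lower (7.14%, beside 5.77%), of which 1 and 0 held. The median was 0.12. Scaling left 3 higher and 4 lower, and leaving out WT ZT22 replicate 2 left 2 higher and leaving out any WT ZT10 library 3. Srebf2, the master regulator of sterol genes, was 2.33, 2.75 and 2.69 FPKM at ZT10 and 5.37, 4.79 and 4.01 FPKM at ZT22. It rose by 0.67 ± 0.12 (adjusted p = 0.00206). Among fat cell markers, whose sum was 222 to 240 FPKM at ZT10 and 214 to 291 at ZT22, 1 of 6 tested was higher and 1 lower. The part of fat cells in the lipid gene differences was not tested.

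Sugar genes were mixed. Of 25 tested genes of glucose uptake and glycolysis, 1 was higher (4%, beside 18.4% of all genes) and 4 lower (16%, beside 5.77%). Of these calls 1 and 2 held, and the median was -0.15. The lower count was 2 without WT ZT10 replicate 1 or WT ZT22 replicates 1 or 2, and 7 without KO ZT10 replicate 3. Hk2, the insulin-inducible hexokinase, was 88.6, 111 and 111 FPKM at ZT10 and 54.7, 56.4 and 60.3 FPKM at ZT22. It fell by 0.84 ± 0.12 (adjusted p = 7.48e-04). Aldoa, the muscle aldolase, was 18598, 16125 and 16271 FPKM at ZT10 and 10564, 9873 and 11273 FPKM at ZT22. It fell by 0.68 ± 0.093 (adjusted p = 5.81e-04), while Pgam1, the non-muscle phosphoglycerate mutase, rose by 0.60 ± 0.11 (adjusted p = 0.00249).

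Insulin signalling genes, of 26 tested, had 5 higher (19.2%, beside 18.4% of all genes) and 1 lower (3.85%, beside 5.77%), of which 1 and 1 held. The median was 0.16, and the higher count was 1 after either correction. It was 1 without WT ZT10 replicates 1 or 2 or WT ZT22 replicate 2, 2 without WT ZT22 replicate 1, and 3 without WT ZT10 replicate 3 or WT ZT22 replicate 3. Insr, the insulin receptor, was 8.59, 11.6 and 12.3 FPKM at ZT10 and 16.1, 17.4 and 17.6 FPKM at ZT22. It rose by 0.62 ± 0.14 (adjusted p = 0.00664). Tsc2, a brake on mTOR, fell by 0.45 ± 0.081 (adjusted p = 0.00251). None of the calls in the glycogen (0 higher and 2 lower of 17), NAD salvage (3 and 2 of 15) and autophagy lists (3 and 3 of 24) held in every other setting.

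Many targets of glucocorticoid hormone were lower at ZT22. Of 17 tested members, 1 was higher (5.88%, beside 18.4% of all genes) and 8 lower (47.1%, beside 5.77%), of which 0 and 6 held. The median was -0.73. Cebpd, a stress-induced transcription factor gene, was 8.64, 28.4 and 18.4 FPKM at ZT10 and 4.53, 2.63 and 3.64 FPKM at ZT22. It fell by 1.96 ± 0.37 (adjusted p = 0.0031). Glul, the glutamine synthetase, was 162, 160.5 and 137 FPKM at ZT10 and 67.2, 70.3 and 66.7 FPKM at ZT22. It fell by 1.15 ± 0.21 (adjusted p = 0.00262). Tsc22d3 (GILZ), an anti-inflammatory target, fell by 0.74 ± 0.17 (adjusted p = 0.00832), and Fam107a fell by 0.73 ± 0.11 (adjusted p = 8.93e-04).

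The metallothioneins, which bind zinc, also fell. Mt2 was 17.4, 195 and 17.02 FPKM at ZT10 and 2.55, 2.95 and 3.47 FPKM at ZT22. WT ZT10 replicate 2 stood far above the rest, and the other ZT10 libraries were still above all ZT22 libraries. Mt2 fell by 3.34 ± 0.71 (adjusted p = 0.00585), a call that held without replicate 2. Mt1 was 29.8, 137 and 23.7 FPKM at ZT10 and 10.2, 11.8 and 12.3 FPKM at ZT22, with the same library on top, and fell by 1.93 ± 0.48 (adjusted p = 0.0127). Ddit4 (REDD1), which restrains mTOR, was 4.74, 18.2 and 16.9 FPKM at ZT10 and 2.22, 2.48 and 1.73 FPKM at ZT22. Its difference of -2.00 (adjusted p = 0.013) was lost without WT ZT10 replicate 2 (0.0532). Nr3c1, the glucocorticoid receptor itself, and Fkbp5, its chaperone, did not pass (differences 0.11 and -0.20).

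Genes of protein breakdown and integrated stress included the largest fall of all. Chac1, which degrades glutathione and is a target of ATF4, was 70.95, 125 and 78.2 FPKM at ZT10 and 5.01, 5.07 and 5.04 FPKM at ZT22. The ZT22 libraries agreed closely, and Chac1 fell by 3.89 ± 0.25 (adjusted p = 6.45e-06). Ddit3 (CHOP), also an ATF4 target, went the other way at 7.06, 9.81 and 12.6 FPKM at ZT10 and 20.4, 22.9 and 27.7 FPKM at ZT22. It rose by 1.21 ± 0.18 (adjusted p = 9.99e-04). Atf4 itself did not pass (difference 0.04, adjusted p = 0.853). Of 21 tested genes of the ATF4 and unfolded protein list, 1 was higher (4.76%, beside 18.4% of all genes) and 2 lower (9.52%, beside 5.77%). All 3 held, and the median was 0.04.

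Trim63 (MuRF1), the muscle ubiquitin ligase of atrophy, was 204, 258 and 140.1 FPKM at ZT10 and 72.2, 64.8 and 84.96 FPKM at ZT22. It fell by 1.39 ± 0.28 (adjusted p = 0.00491). Fbxo32 (atrogin-1), the other main ligase, was 87.2, 107 and 68.5 FPKM at ZT10 and 46.9, 48.3 and 50.1 FPKM at ZT22. Its groups did not overlap, but the difference of -0.82 did not pass (adjusted p = 0.0633), and passed in 7 of the other settings, among them scaling (0.0326) and the 6 WT libraries alone (0.00425). Cebpb, a factor induced by fasting and stress hormones, was 29.1, 36.03 and 38.6 FPKM at ZT10 and 8.58, 8.67 and 9.14 FPKM at ZT22. It fell by 1.85 ± 0.19 (adjusted p = 1.12e-04). Arrdc2, an arrestin-domain gene of muscle, was 41.3, 45.3 and 50.5 FPKM at ZT10 and 9.26, 10.4 and 6.59 FPKM at ZT22. It fell by 2.28 ± 0.28 (adjusted p = 3.30e-04). Cish, a feedback inhibitor of cytokine signalling, was 10.9, 11.1 and 7.85 FPKM at ZT10 and 0.43, 0.35 and 2.79 FPKM at ZT22. It fell by 2.48 ± 0.42 (adjusted p = 0.00177).

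**Figure D3:**
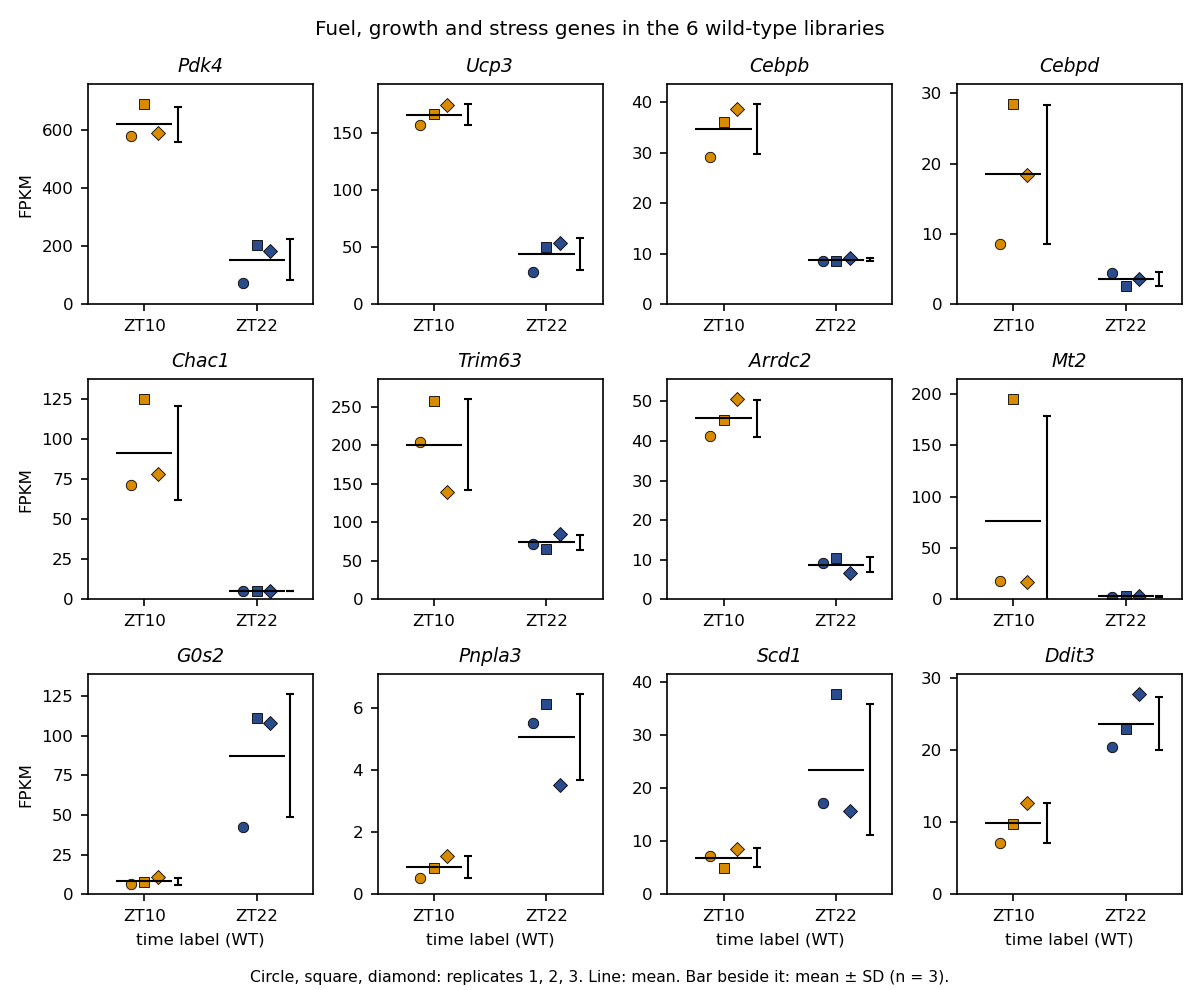
FPKM of 12 fuel, growth and stress genes in each WT library, drawn as for the clock genes; axes start at 0, and the part of the Mt2 bar below 0 is not drawn. The panels from Pdk4 to Mt2 are lower at ZT22, and G0s2, Pnpla3, Scd1 and Ddit3 are higher.

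Promoter stretches of 3 of these genes are shown because they hold both half-sites of the glucocorticoid response element. The search was for GNACA and TGTNC with 3 bases between them, on both strands (RefSeq, GRCm38.p6, capitals mark the match). As N can be any base, a match need not be an exact palindrome. The matches lie at -208 in Trim63 (chr4:134314892-134314944, plus strand), at -94 in Mt1 (chr8:94178975-94179027, plus strand) and at -118 in Fam107a (chr14:8309865-8309917, minus strand).
Trim63: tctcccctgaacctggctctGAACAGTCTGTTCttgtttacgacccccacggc
Mt1: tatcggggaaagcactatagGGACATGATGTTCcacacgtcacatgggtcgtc
Fam107a: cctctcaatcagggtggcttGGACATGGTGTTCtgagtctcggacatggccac
These letters were in the windows of 0.440% of 27025 genes and in 25 of 7931 tested genes with a window (0.315%). Among genes lower at ZT22 they were in 6 of 455 (1.32%), namely Eml1, Fam107a, Fem1a, Map3k6, Mt1 and Trim63, and among genes higher in 1 of 1445 (0.069%), Atf7ip. This share was read after the values were seen and was not tested. Of 15 glucocorticoid list members with a window, 3 held the element, and Cebpd had no entry.

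Nuclear-encoded respiratory chain genes gave calls in one direction, lower at ZT22. Of 50 tested, 0 were higher (beside 18.4% of all genes) and 20 lower (40%, beside 5.77%), of which 0 and 14 held. The median was -0.22. After scaling 28 were lower and after removal of the length trend 21. The list was not uniform, with differences from -0.97 to 2.08. All ZT22 libraries lay above all ZT10 libraries for 3 members, none of them called, and below them for 28. Over all genes these shares were 30.2% and 13.4%. Cox6c, a subunit of cytochrome c oxidase, was 823, 631 and 647 FPKM at ZT10 and 360.5, 341 and 366 FPKM at ZT22. It fell by 0.97 ± 0.11 (adjusted p = 2.11e-04). Cox4i1 fell by 0.66 ± 0.077, Ndufa2 of complex I by 0.69 ± 0.093 and Cox5b by 0.61 ± 0.094. Uqcrc1 of complex III fell by 0.49 ± 0.086 and Atp5g1 of the ATP synthase by 0.47 ± 0.094. Held calls lay in complexes I, III, IV and V, and the complex II gene Sdhd differed by -0.31 (adjusted p = 0.0437), a call lost in 13 of the other settings. Ppargc1a, the coactivator of mitochondrial biogenesis, did not pass (difference -0.05).

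Cytosolic ribosomal protein genes were divided. Of 78 tested, 6 were higher (7.69%, beside 18.4% of all genes) and 15 lower (19.2%, beside 5.77%), of which 1 and 11 held. The median was -0.08, and scaling left 1 higher and 29 lower. Leaving out WT ZT10 replicate 2, WT ZT22 replicate 1 or WT ZT22 replicate 2 left 2 higher each, and leaving out KO ZT10 replicate 3 gave 10. Rps21 was 339, 277 and 266 FPKM at ZT10 and 122, 123 and 111 FPKM at ZT22. It fell by 1.29 ± 0.10 (adjusted p = 1.91e-05), and Rpl10 fell by 0.75 ± 0.095. Rps25 was 198, 150.4 and 147 FPKM at ZT10 and 249.8, 248 and 241 FPKM at ZT22 and rose by 0.59 ± 0.12 (adjusted p = 0.00491). These genes have many near-identical copies, between which the counting may have split reads, so their values are uncertain. Of 34 proteasome genes, 0 were higher and 6 lower (17.6%, beside 5.77% of all genes), of which 0 and 2 held (Psmd3 and Psmd4). The median was -0.11. Without WT ZT22 replicate 2 there were 2 lower, and without WT ZT10 replicate 3 or WT ZT22 replicate 3 there were 3.

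Several lists had few calls. Heat shock genes had 3 higher (13%, beside 18.4% of all genes) and 1 lower (4.35%, beside 5.77%) of 23, of which 0 and 1 held. The held one was Hspb1, a small heat shock protein gene, which fell by 0.73 ± 0.17. Immediate early genes had 1 higher and 1 lower of 19 (5.26% each), with Maff, a small MAF factor gene, falling by 0.96 ± 0.19. Amino acid breakdown genes had 0 higher and 5 lower (20%) of 25, among them Bcat2, a branched-chain aminotransferase, which fell by 0.43 ± 0.088. Without WT ZT22 replicate 2 there were 2 lower and without WT ZT10 replicate 1 there were 3. The atrophy list, which holds Trim63, had 1 higher (6.25%) and 2 lower (12.5%) of 16, of which 0 and 1 held. There were 1 to 4 lower when 1 library was left out. The secreted myokine list had 0 higher and 1 lower (8.33%) of 12 (0 and 0 held), with 0 to 2 lower when 1 library was left out.

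**Figure D4:**
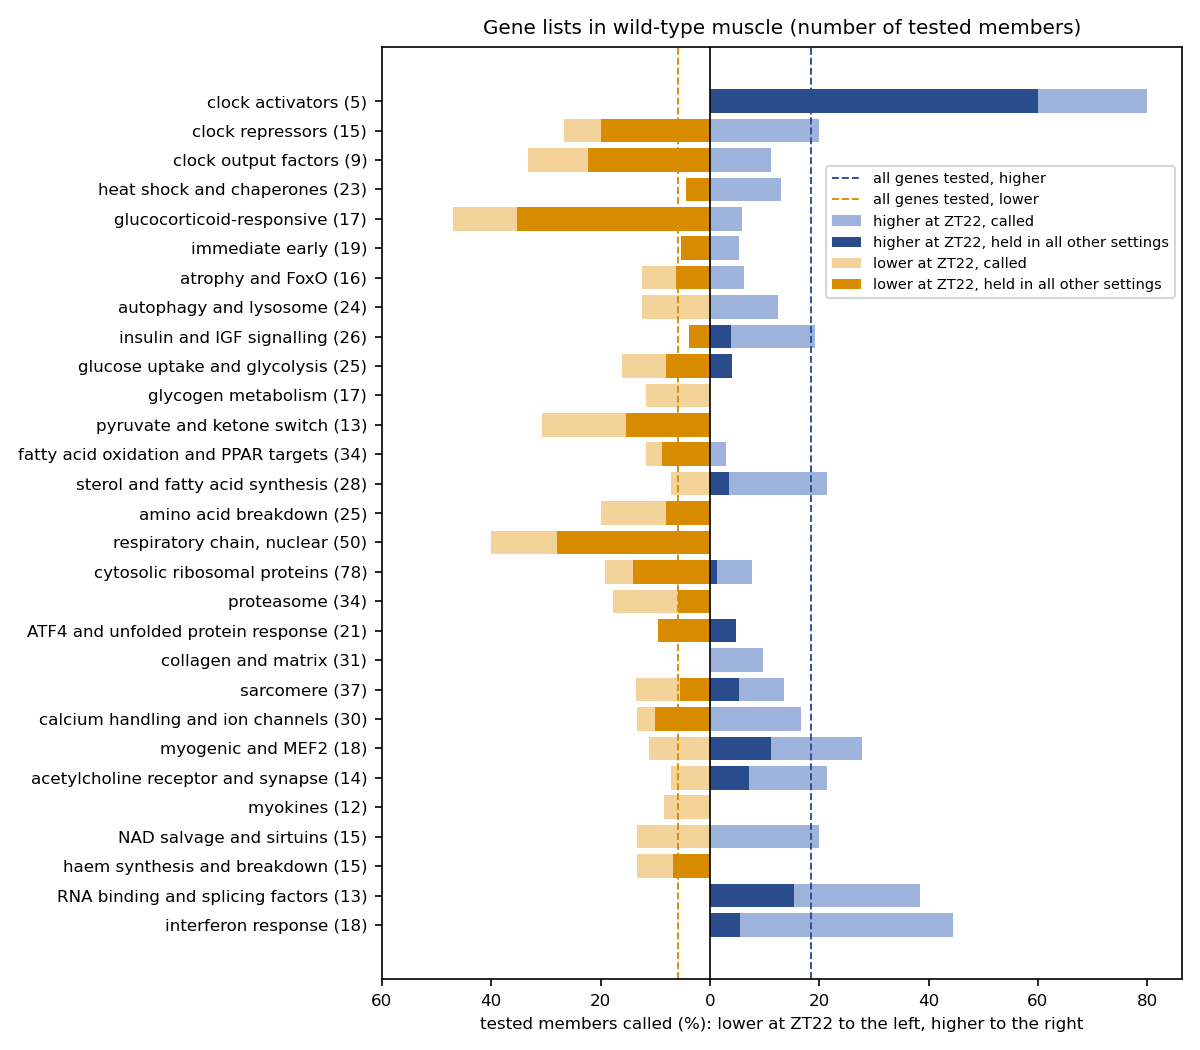
Percentage of tested members (number in brackets) of 29 gene lists called lower (left) or higher (right) at ZT22, with the part that held in all 21 other settings in dark colour. Dashed lines mark all tested genes, at 5.77% lower and 18.4% higher; clock activators reach furthest to the right, and glucocorticoid targets and the respiratory chain furthest to the left.

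Structural muscle genes were divided. Of 37 sarcomere genes, 5 were higher (13.5%, beside 18.4% of all genes) and 5 lower (13.5%, beside 5.77%), of which 2 and 2 held. The median was -0.11. Without WT ZT10 replicate 2 or WT ZT22 replicate 2 there were 3 higher, and without WT ZT10 replicates 1 or 3 or any WT ZT22 library 3 lower. Acta1, the skeletal actin, was 32604, 30938 and 28223 FPKM at ZT10 and 18056, 15941 and 18637 FPKM at ZT22. It fell by 0.80 ± 0.11 (adjusted p = 5.76e-04). Tcap, which caps titin at the Z-disc, was 3794, 3577 and 3273 FPKM at ZT10 and 1798, 1753 and 1619.5 FPKM at ZT22. It fell by 1.04 ± 0.098 (adjusted p = 9.19e-05). Transcripts of the giant proteins were higher, Ttn at 104, 139 and 129.7 FPKM at ZT10 and 231, 237 and 247 FPKM at ZT22. It rose by 0.94 ± 0.11 and, with the length trend removed, still differed by 0.86. Neb, the thin filament ruler, rose by 0.74 ± 0.15 (adjusted p = 0.00531). The length used for the trend, the median annotated coding transcript, was 2130 bases for Ttn and 2937 for Neb, far below their full-length forms, so removing the trend did not treat them as the longest genes.

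Of 30 calcium and ion channel genes, 5 were higher (16.7%, beside 18.4% of all genes) and 4 lower (13.3%, beside 5.77%), of which 0 and 3 held. The median was -0.04. The higher count was 0 after either correction and without WT ZT10 replicate 1, 1 without WT ZT10 replicate 3 or any WT ZT22 library, 2 without WT ZT10 replicate 2 or KO ZT22 replicate 1 and 3 without KO ZT22 replicate 3. Cacna1s, the voltage sensor of contraction, fell by 0.46 ± 0.081 (adjusted p = 0.00234). Its partner Cacng1 fell by 0.62 ± 0.13 and Mrln (myoregulin), an inhibitor of the calcium pump, by 0.66 ± 0.13. Of 18 myogenic genes, 5 were higher (27.8%, beside 18.4% of all genes) and 2 lower (11.1%, beside 5.77%), of which 2 and 0 held. The median was 0.24, and 3 were higher without WT ZT10 replicate 1 or WT ZT22 replicate 2. Six4, a homeobox factor gene of muscle, rose by 0.92 ± 0.10. Utrn, the dystrophin relative at the synapse, rose by 0.59 ± 0.12, and Alas1, the first enzyme of haem synthesis, fell by 0.64 ± 0.14. Erythroid markers summed to 514 to 1380 FPKM at ZT10 and 364 to 607 at ZT22, and their part in the haem genes was not tested.

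Kdr, Pecam1 and Cdh5, genes of the blood vessel lining, rose at ZT22. Of 8 endothelial markers, 5 were higher (62.5%, beside 18.4% of all genes) and 0 lower (beside 5.77%), of which 3 and 0 held. The median was 0.57, and none of the markers was at 0 in any WT library. Without WT ZT10 replicate 1 or WT ZT22 replicate 2 there were 3 higher. Their sum was 80.9 to 91.8 FPKM at ZT10 and 122 to 154 FPKM at ZT22. Kdr (VEGF receptor 2) was 5.69, 6.05 and 6.27 FPKM at ZT10 and 15.99, 19.1 and 13.8 FPKM at ZT22. It rose by 1.29 ± 0.13 (adjusted p = 1.31e-04). Pecam1 rose by 0.77 ± 0.11 and Cdh5 by 0.68 ± 0.13. In bulk tissue, more cells of a type and more RNA per cell cannot be told apart. Fibroblast, leukocyte and tendon markers had 0 calls among 7, 6 and 4 tested.

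Of 18 interferon response genes, 8 were higher (44.4%, beside 18.4% of all genes) and 0 lower (beside 5.77%), of which 1 and 0 held. The median was 0.33. After scaling 5 were higher, after removal of the length trend 3, and without WT ZT10 replicate 1 there was 1. Without WT ZT22 replicate 2 there were 2, without WT ZT10 replicate 2 there were 3 and without WT ZT22 replicate 1 there were 4. Irf7, a driver of interferon genes, was 1.14, 1.02 and 1.02 FPKM at ZT10 and 3.29, 3.62 and 2.01 FPKM at ZT22 and rose by 0.92 ± 0.16 (adjusted p = 0.00185). Matrix genes had 3 higher (9.68%, beside 18.4% of all genes) and 0 lower (beside 5.77%) of 31 tested, and none of the 3 held. Fbn1 and Col4a2 were lost with the length trend removed (0.183 and 0.289). Col4a1, of the basement membrane around vessels and fibres, was lost without WT ZT10 replicate 1 (0.0752) or WT ZT22 replicates 1 (0.0507) or 2 (0.0615). The median annotated length used for the trend was 1170 bases for Col4a1 and 6450 for Col4a2, so its removal treated the pair unlike. The part of vessel cells in these 2 lists was not tested.

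Other genes with large differences or small p-values were of several kinds. Dyrk2, a kinase, was 10.8, 12.3 and 14.8 FPKM at ZT10 and 38.9, 37.9 and 36.9 FPKM at ZT22. It rose by 1.52 ± 0.10 (adjusted p = 7.98e-06). Setd5, a chromatin regulator, was 3.56, 4.06 and 4.72 FPKM at ZT10 and 29.1, 33.9 and 7.76 FPKM at ZT22. WT ZT22 replicate 3 was close to the ZT10 libraries, and Setd5 rose by 2.04 ± 0.37 (adjusted p = 0.00264). Auts2, another regulator of transcription, rose by 1.72 ± 0.28, Ahdc1 by 1.47 ± 0.12, Zfc3h1 of nuclear RNA decay by 1.24 ± 0.091 and Tnrc18 by 1.19 ± 0.098. Of 13 RNA binding and splicing genes, 5 were higher (38.5%, beside 18.4% of all genes) and 0 lower (beside 5.77%), of which 2 and 0 held. The median was 0.05. Pnisr rose by 0.88 ± 0.080 and Luc7l2 by 0.55 ± 0.070, and Srrm2, a spliceosome scaffold outside that list, rose by 0.81 ± 0.072. The median annotated length used for the trend was only 816 bases for Auts2 and 950 for Srrm2. Removing the trend thus treated both as short genes and left differences of 1.71 and 0.81.

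Mybph, a myosin-binding protein gene, was 5.98, 8.13 and 4.4 FPKM at ZT10 and 14.2, 63.4 and 47.5 FPKM at ZT22. Its difference of 2.37 (adjusted p = 0.0105) was lost without WT ZT22 replicate 2 (0.0513). Rpl31-ps12 was 0.93, 0 and 0.28 FPKM at ZT10 and 11.2, 16.8 and 19.9 FPKM at ZT22. It rose by 3.61 ± 0.33, as did Rpl37rt by 2.83 ± 0.20 and Rpl34-ps1 by 1.67 ± 0.23. These are copies of ribosomal protein genes, so reads may belong to their parent genes. Zbed6 (rose by 1.66 ± 0.28) lies inside Zc3h11a and Rsc1a1 (fell by 2.35 ± 0.32) inside Ddi2, each on the same strand, so their reads cannot be told from those of the host.

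The same time comparison in the libraries labelled KO called 4239 genes (42.6%), of which 2872 were higher at ZT22 (28.9%) and 1367 lower (13.7%). The length trend was present there too, with a median log2 difference of -0.10 in the shortest and 0.42 in the longest bin. Nr1d1, a gene targeted by the knockout, was 359 to 503 FPKM at ZT10 and 328 to 369 FPKM at ZT22 there, above all WT libraries, and Nr1d2 was 36.3 to 40.6 FPKM over both times. A higher level goes against a loss of the transcript, and since values for whole genes do not show a deleted part, the label stands unchecked here. Of the 1830 genes higher in WT, 1761 had the same sign and 1415 were called the same way with the KO label; of the 574 lower, 533 and 417. The part of the shared length trend in these counts was not tested.

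The difference between the time effects was tested directly and passed for 4 genes (0.0402%), with 1696 at an unadjusted p under 0.05. The signed ZT22 minus ZT10 difference was higher in the libraries labelled KO for 2 of the 4 (0.0201%) and lower for 2 (0.0201%). Arntl differed by 0.33 between times in the libraries labelled KO, where it was 32.97 to 41.97 FPKM at ZT10 and 44.2 to 49.1 at ZT22, a difference from WT of -1.64 ± 0.15 (adjusted p = 0.0012). Dbp was 80.1 to 148 FPKM at ZT10 and 80.2 to 89.3 at ZT22 there, and its difference from WT was 2.18 ± 0.24 (adjusted p = 0.00399). Gpcpd1, a glycerophosphocholine phosphodiesterase of muscle, fell in WT by 0.72 ± 0.11 and was higher by 0.42 in those libraries. Slc38a10, an amino acid transporter gene, differed by 0.33 in WT, lost in 13 of the other settings, and by -0.77 in those libraries.

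No difference between the labels was called for other genes named above, which does not show that they are equal. Chac1 differed by -3.43 in the libraries labelled KO, Ucp3 by -2.10, Pdk4 by -1.82, Cebpb by -2.43 and Clock by 1.09. Adjusted p-values for the difference were 0.287 to 0.881 for these 5 genes. Per2 differed there by -0.45, against -0.99 in WT, and the test of that difference gave an adjusted p of 0.128. The count rested on single libraries: it was 77 without WT ZT10 replicate 1, 68 without KO ZT10 replicate 1, 47 without KO ZT10 replicate 3 and 18 without WT ZT22 replicate 3. It was 2 without WT ZT10 replicate 2, WT ZT10 replicate 3, KO ZT10 replicate 2, WT ZT22 replicate 1 or KO ZT22 replicate 1.

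**Figure D5:**
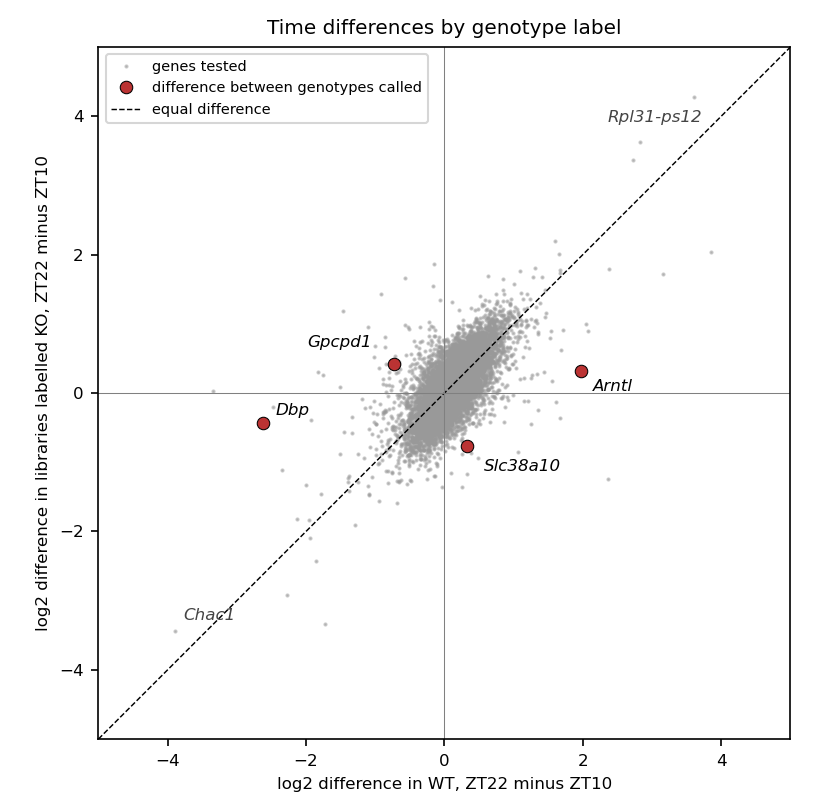
Each grey point is 1 of 9953 genes, by its log2 difference (ZT22 minus ZT10) in WT on the x axis and in the libraries labelled KO on the y axis, with the dashed line marking equality. The 4 red points, with Arntl at 1.97 and 0.33 and Dbp at -2.62 and -0.43, are those whose difference between genotypes passed.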

How the data were processed

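Total RNA from 12 tibialis anterior samples was sequenced. The deposited table holds one value per gene and library, whose unit the header does not name; the values the authors deposited were taken as FPKM because, multiplied by transcript length in kilobases, they summed to 822849.7 to 896109.4 per library, near the total that FPKM would give. Per the submitters' processing notes, HISAT2, HTSeq and DESeq2 1.8.2 were used with the GRCm38 (mm10) mouse genome, and neither the step that each did nor the strand setting is stated. The log2 fold changes, p-values and q-values that the authors deposited beside the FPKM were not used. 0 library columns were left unused.

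Of 14583 entries, 82 had no values and 230 were exact repeats, 1 symbol had differing entries, and 14270 genes were kept, of which 14081 matched GENCODE M21 by symbol. Depth in reads is unknown, so no counting interval can be given. The 9953 genes averaging 1 FPKM or more over the 12 libraries were tested with limma 3.58.1 (R 4.3.3) on log2(FPKM + 1), with one mean per group, 3 libraries each, empirical Bayes moderation along the intensity and Benjamini-Hochberg adjustment over all genes tested. Fold changes on this scale understate the change of low genes. Alternatives were a pseudocount of 0.1, no filter, median-of-ratios scaling, removal of a lowess trend (span 0.3) on the median coding transcript length, a replicate block alone or with either correction, robust empirical Bayes, the 6 WT libraries alone and leaving out each library. On simulated data for the WT comparison (9953 genes), the test recovered 33 of 50 genes changed 1.5-fold, 49 of 50 changed 2-fold and 50 of 50 changed 4-fold, with 9 false calls among 191. Same-numbered WT libraries showed little shared deviation (correlations across genes of 0.093, 0.030 and 0.008), and the numbers were not taken as pairs.

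Members and gene lists were chosen with earlier results of these data known, and lists are described by counts and medians. Named genes were the clock genes, the 12 largest called differences each way and the 12 smallest adjusted p-values among named genes whose ZT10 and ZT22 libraries did not overlap, up to 5 called members of each list, and those whose time effect differed between genotypes. Atf4, Atp5g1, Cdh5, Fbxo32, Fkbp5, Kdr, Nr3c1, Ppargc1a, Rps25, Sdhd and Uqcrc1 lie outside this rule and were chosen after their values were seen. Some members of the lists are counted but not reported here by name. Promoter sequences are from RefSeq. Tables and plots were made in Python 3.11.15 with numpy 2.4.6, pandas 2.3.3 and matplotlib 3.10.9.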

Additional observations from a re-analysis of the deposited data

Results flagged for a closer look

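The time difference (ZT22 minus ZT10) differed between WT and the libraries labelled KO for 4 genes, by limma's test of the difference itself. The signed value with the KO label minus that in WT was -1.6443 for Arntl (SE 0.15, adjusted p = 0.0012) and -1.0947 for Slc38a10 (SE 0.15, adjusted p = 0.0230). For Dbp it was 2.1818 (SE 0.24, adjusted p = 0.00399), and for Gpcpd1 1.1473 (SE 0.16, adjusted p = 0.0230). The time difference changed sign for Slc38a10, from 0.33 in WT to -0.77, and for Gpcpd1, from -0.72 to 0.42. Both sets of libraries share 1 estimate of spread but no samples. In the libraries labelled KO, Nr1d1 was higher than in every WT library, and its part in these differences was not tested.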

How the results depend on the processing

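The count of 2404 genes called in WT was 2320 with a pseudocount of 0.1, 2502 without the filter, 2426 under median-of-ratios scaling, 1973 with the length trend removed, 2379 with robust empirical Bayes and 2457 in the 6 WT libraries alone, all within 1.5 times. Leaving out 1 library gave 1290 to 2929 genes, with the lowest values without WT ZT22 replicate 2 (1290), WT ZT10 replicate 1 (1406) and WT ZT22 replicate 1 (1477). The count of genes whose time effect differed between genotypes, 4, was 8 with the length trend removed and 2 to 77 leaving out 1 library. With the replicate number as a block, 2385 genes were called in WT (1939 with the length trend also removed, 2383 with scaling), and 5 for the difference between genotypes. The correlations of same-numbered WT libraries across genes were small, at 0.008 to 0.093, which cannot show that the numbers share nothing. Of 172 named genes, 0 changed direction in any setting. Scaling ended 24 calls and added 5, removing the length trend ended 23 and added 5, and leaving out WT ZT22 replicate 2 ended 52. The causes were not tested. With read depth unknown and 3 libraries per group, small differences that did not pass may have gone undetected. The test recovered 66% of 1.5-fold changes simulated without a scaling shift or length trend.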
